A study of Homo sapiens with 4 samples.

Results

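The genes described here are 58 human chromatin modifiers and remodelers: histone methyltransferases and demethylases, Polycomb proteins, histone deacetylases and acetyltransferases, subunits of nucleosome remodelers, and enzymes that write or erase DNA methylation. They were chosen by gene symbol from a fixed list, and all 58 were among the 55764 gene names measured. RNA was sequenced in bulk from TE5 cells, an established human line that the labels describe as oesophageal squamous cell carcinoma. In 2 libraries the cells stably carried a lentiviral vector expressing ETS1, an ETS-family transcription factor, from a CMV promoter, while the cells of the other 2, the controls, held its empty backbone. The control libraries are labelled as wild type, and all 4 libraries come from the same line grown in the same medium. The labels number the libraries 1 and 2 in each group without saying whether these are separate infections or cultures, so the p-values measure the spread between these libraries, which may be technical.

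Histone tails are modified by enzymes that add or remove methyl and acetyl groups, and the marks are read by other proteins to open or close chromatin. Methylation of H3K4 and acetylation go with active genes, while methylation of H3K9 and the H3K27 methylation placed by Polycomb repressive complex 2 go with silent ones. Nucleosome remodelers of the SWI/SNF and CHD families use ATP to slide or evict nucleosomes. In squamous carcinomas, including those of the oesophagus, genes of this kind such as KMT2D and EP300 are among those recurrently mutated.

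The levels are FPKM, fragment counts scaled by gene length and by library depth, as the authors deposited them. Recovered reads numbered 40356114 and 44118941 in the controls and 57269114 and 56502020 in the ETS1 libraries, so the ETS1 libraries were 1.35 times deeper. ETS1 itself stood at 0.491 and 0.509 FPKM in the controls and at 1.84 and 1.87 FPKM in the ETS1 libraries. Of the markers of the labelled cell type, KRT5, KRT14, TP63 and KRT6A were listed at 0 in both controls and summed to at most 0.0410 FPKM in an ETS1 library, so these markers do not show a squamous identity. The simple epithelial markers KRT8, KRT18, KRT19 and EPCAM summed to 15.5 to 15.8 FPKM in the controls and 15.8 to 16.0 FPKM in the ETS1 libraries, but within the list KRT8 was 1.68 times its control FPKM (limma adjusted p 0.000591) and KRT18 0.801 times (adjusted p 0.00223). Of 5 fibroblast markers, only COL1A1 reached 1 FPKM in any library. The summed level of the fibroblast list moved with the groups, from 2.17 to 2.27 FPKM in the controls to 3.05 to 3.10 FPKM with ETS1. Of the proliferation genes, 9 of 17 were called higher, among them MKI67 (0.69 on the log2 scale), and 6 lower, among them PCNA (-0.27), where 30.7% and 28.4% of all tested genes were called. The part of these genes in the results was not tested.

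Most chromatin modifiers that differed were higher with ETS1, and the differences were small. Of the 56 members with a mean of at least 1 FPKM, 27 were called higher in the ETS1 libraries and 7 lower by limma at an adjusted p under 0.05, where 30.7% of all 14306 tested genes were called higher, 28.4% lower and 59.1% either way. In shares, 48.2% of the tested members rose and 12.5% fell. The median log2 change was 0.12 for the tested members and 0.016 for all tested genes. PBRM1, a subunit of the PBAF remodeler, and KDM5A, an H3K4 demethylase, rose most, to 1.57 and 1.64 times their control FPKM. KAT2A, the GCN5 acetyltransferase, and SMARCB1, a core subunit of SWI/SNF, fell most, to 0.773 and 0.805 times. On GRCh38, GENCODE places PBRM1 at chromosome 3, 52545352 to 52685917, KDM5A at chromosome 12, 280129 to 389454, KAT2A at chromosome 17, 42113108 to 42121358 (these 3 on the minus strand), and SMARCB1 at chromosome 22, 23786931 to 23838008 on the plus strand.

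Both ETS1 values lay above both control values for 40 tested members and below them for 10, where 43.1% and 38.9% of all tested genes did so, 82.0% in all. The mean FPKM of called members was 1.09 to 1.64 times the control mean among those that rose and 0.773 to 0.895 times among those that fell. Tested members were counted with 568 to 30577 recovered reads per library, and the median coefficient of variation between replicates was 1.86% in the controls and 1.49% with ETS1. With either ETS1 library left out, fewer members were called. The median member change was then 0.12 without ETS1 replicate 1 and 0.11 without ETS1 replicate 2. The share of all tested genes called in these fits is not given here. With 2 libraries against 2, an exact permutation test of a single gene cannot give a two-sided p under 0.33, so the calls rest on the variance that limma shares across genes. In bulk RNA, a change in the level per cell and a change in the share of cells that hold a transcript cannot be told apart.

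**Figure D1:**
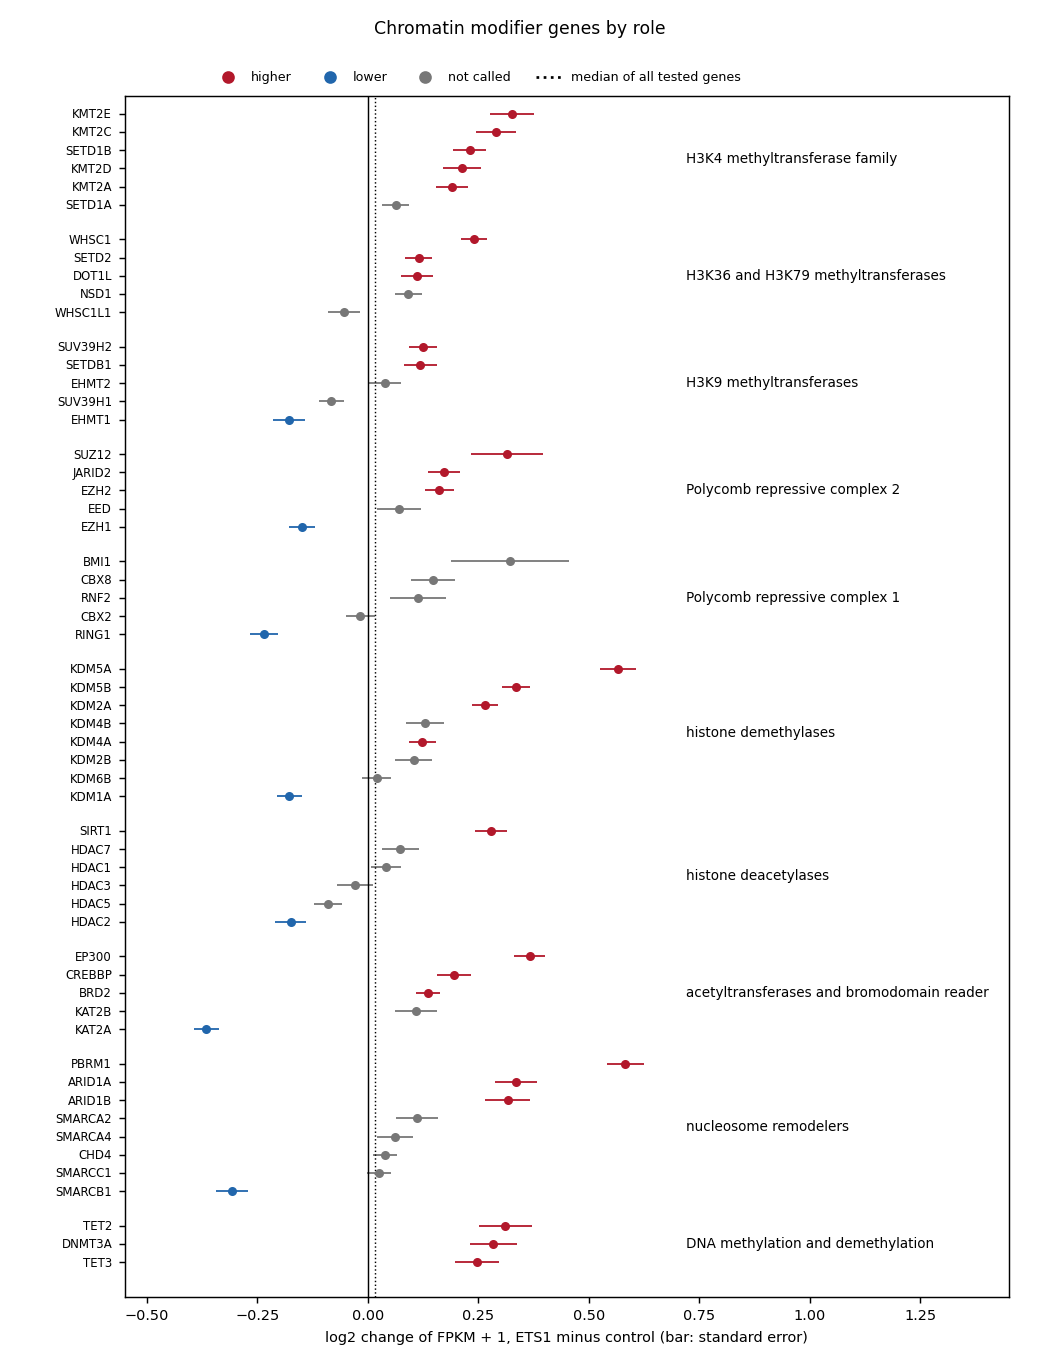
Log2 change of FPKM + 1 (ETS1 minus control) for the tested chromatin modifiers, with bars of 1 standard error from limma, grouped by role. Red points were called higher, blue points lower and grey points neither, and each group except the DNA methylation enzymes, the H3K4 family and the H3K36 and H3K79 methyltransferases holds 1 member called lower.

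Gene length, here the inferred exon bases and not the genomic span, went with the direction of change. The members are long: the median length inferred from the FPKM and the authors' mean counts was 7541 bases for the tested members and 4038 bases for all tested genes, and 50 of 56 members were longer than the latter. Across all tested genes the median log2 change climbed with length, from -0.12 for the 3292 genes under 2 kb to 0.14 for the 2104 genes of 8 kb or more. Among tested genes at least as long as the median member, 49.1% were called higher, 13.1% lower and 62.2% either way. Of the members, which include shorter genes, 48.2% were called higher and 12.5% lower. Of the 26 members of 8 kb or more, 18 were called higher and 2 lower, against 49.6% and 12.6% of all such genes. In the 6 to 8 kb class it was 5 and 1 of 14 (all genes 42.7% and 18.5%). In the 4 to 6 kb class it was 3 and 1 of 11 (35.0% and 26.2%), and at 2 to 4 kb 1 and 2 of 4 (23.5% and 36.8%). The members that rose had a median length of 9589 bases and those that fell 5447 bases. Across the 56 members, which share their libraries, the log2 change had a Spearman rho of 0.32 with length and -0.51 with the control level, given as a description. Across all tested genes these were 0.29 and -0.28.

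When a smooth trend of the change on gene length was removed from all genes before the fit, 12 members were called higher and 9 lower, where 27.0% and 28.7% of all tested genes were called (55.7% in all). The median member change was then 0.019. All 12 of those higher calls and 7 of the lower ones were also calls before the removal, and the other 2 lower calls were WHSC1L1 and HDAC5. The 12 were KMT2E, SETD1B, SUV39H2, EZH2, KDM2A, KDM5A, KDM5B, SIRT1, EP300, ARID1A, PBRM1 and DNMT3A. With a trend on GC content removed as well, an alternative chosen after seeing the data, 17 members were higher and 9 lower. Only the 12572 tested genes with a GC value entered that fit, and 28.6% and 29.8% of them were called (58.3% in all). That removal restored the calls of JARID2, KDM4A, BRD2, ARID1B and TET3, which were lost with the length trend alone removed, at adjusted p-values of 0.0265, 0.0280, 0.0253, 0.0169 and 0.0312. It ended those of SUV39H2 and RING1 (0.0760 and 0.0714), and it added CBX8 as higher and EED as lower. Whether the length trend is technical was not tested.

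**Figure D2:**
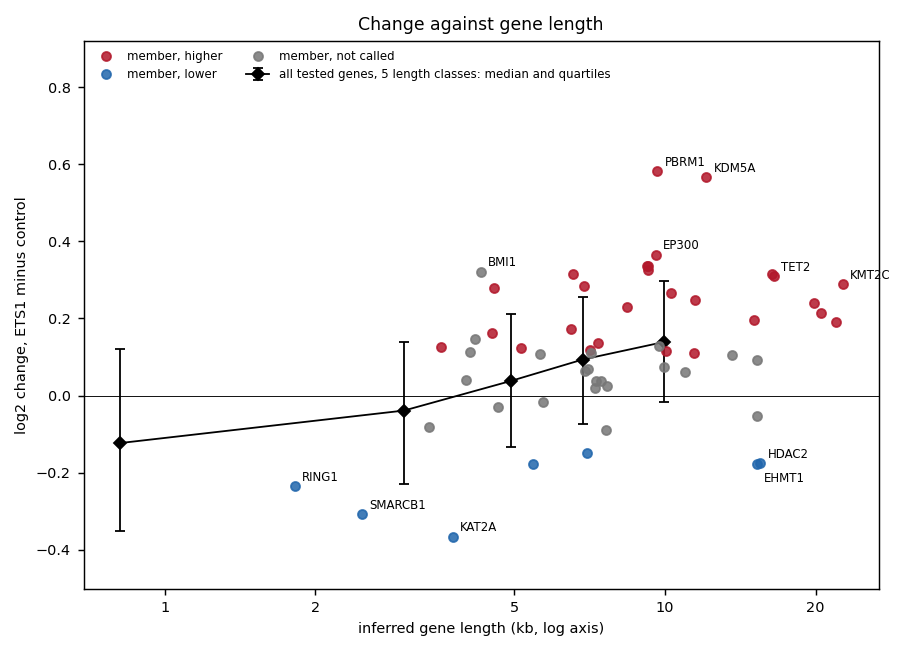
Log2 change (ETS1 minus control) against inferred gene length in kb on a log axis, for the 56 tested members (points, coloured by call) and for all tested genes in 5 length classes (black diamonds, median with quartiles). The class medians climb from -0.12 to 0.14, and PBRM1 and KDM5A lie above the upper quartile of the class of their length.

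The promoters of the members with the largest rises and falls are shown because ETS factors bind a GGAA core, and they give the sequence context of these genes. Each is the RefSeq window of 250 bases before to 50 bases after the start, on GRCh38.p14, written 5′ to 3′ on the gene's strand, with any CCGGAAG (an ETS-type core) or its reverse complement CTTCCGG in capitals.
PBRM1 (chr3:52685864-52686163, minus strand): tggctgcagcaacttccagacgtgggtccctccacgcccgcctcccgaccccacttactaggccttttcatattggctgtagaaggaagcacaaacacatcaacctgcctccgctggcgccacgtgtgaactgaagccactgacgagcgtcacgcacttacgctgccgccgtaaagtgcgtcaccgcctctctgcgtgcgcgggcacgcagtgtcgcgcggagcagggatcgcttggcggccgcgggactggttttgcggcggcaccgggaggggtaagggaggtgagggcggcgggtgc
KDM5A (chr12:389271-389570, minus strand): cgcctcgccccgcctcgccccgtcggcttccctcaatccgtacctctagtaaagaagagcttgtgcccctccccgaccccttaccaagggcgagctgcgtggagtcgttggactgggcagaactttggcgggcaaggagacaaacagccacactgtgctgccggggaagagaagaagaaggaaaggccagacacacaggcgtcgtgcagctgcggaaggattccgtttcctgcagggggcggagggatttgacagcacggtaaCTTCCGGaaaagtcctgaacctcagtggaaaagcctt
KAT2A (chr17:42121318-42121617, minus strand): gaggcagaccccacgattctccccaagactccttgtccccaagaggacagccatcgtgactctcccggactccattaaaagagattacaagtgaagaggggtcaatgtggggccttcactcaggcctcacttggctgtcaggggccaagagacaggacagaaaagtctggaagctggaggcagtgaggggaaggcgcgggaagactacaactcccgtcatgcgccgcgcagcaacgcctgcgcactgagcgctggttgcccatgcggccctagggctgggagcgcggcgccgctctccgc
SMARCB1 (chr22:23786716-23787015, plus strand): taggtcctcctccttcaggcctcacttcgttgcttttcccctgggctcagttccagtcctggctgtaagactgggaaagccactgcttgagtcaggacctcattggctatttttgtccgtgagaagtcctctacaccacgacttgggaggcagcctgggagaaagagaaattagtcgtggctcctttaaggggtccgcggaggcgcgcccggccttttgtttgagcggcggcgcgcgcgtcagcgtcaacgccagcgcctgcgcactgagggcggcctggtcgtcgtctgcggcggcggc
The KDM5A window held 1 match, on the reverse strand, and no match to these letters was found in the other windows. Only the longer CCGGAAG was searched for. The shorter GGAA core, or its reverse complement TTCC, is present unmarked in each of the windows shown. Of the 51 members with a window in the table, 4 (7.84%) held a match: KDM2B, KDM5A, SMARCA2 and CHD4. The share was 19.8% of the 8924 windows of tested genes and 10.7% of all 27305 windows. Of the 4 members with a match, 1 was called higher and 3 were not called. A match is a description of the sequence and not a bound site.

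Among the H3K4 methyltransferase family, most of whose members place the mark of active promoters and enhancers, 5 of 6 genes rose and none fell, with a median of 0.22. Of all tested genes 30.7% rose and 28.4% fell, and of those at least as long as the median member 49.1% and 13.1%. KMT2E, a family member that reads rather than writes the mark, was at 4.87 and 5.33 FPKM in the controls and at 6.60 and 6.68 FPKM in the ETS1 libraries. Both ETS1 values were above both controls, and the change was 0.33 (standard error 0.0494, limma adjusted p 0.00490). KMT2C, an enhancer methyltransferase, went from 2.75 and 2.63 to 3.46 and 3.56 FPKM, with a change of 0.29 (standard error 0.0451, limma adjusted p 0.00531). Its close relative KMT2D went from 4.17 and 4.04 to 4.79 and 5.05 FPKM, a change of 0.21. KMT2A, the MLL1 methyltransferase, was at 4.83 and 4.87 FPKM in the controls and 5.60 and 5.76 FPKM with ETS1, a change of 0.19. SETD1B, a catalytic subunit of the SET1 complexes, rose from 4.90 and 5.05 to 5.97 and 6.04 FPKM. Its partner gene SETD1A was the most abundant of the family, at 17.9 and 17.6 FPKM against 18.4 and 18.8 FPKM, and its change of 0.064 did not pass (adjusted p 0.132). With the length trend removed, KMT2E (0.20, adjusted p 0.0232) and SETD1B (0.12, adjusted p 0.0487) kept the call, while KMT2C (0.084, adjusted p 0.173), KMT2D (0.015, adjusted p 0.787) and KMT2A (-0.013, adjusted p 0.784) lost it. These 3 have the longest inferred lengths of the tested members, at 20496 to 22672 bases, and partial genomic copies of KMT2C can share its reads.

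The H3K9 methyltransferases, which mark silent chromatin, went both ways: 2 of 5 rose and 1 fell, against 30.7% and 28.4% of all tested genes. EHMT1 (GLP) and EHMT2 (G9a) act as a heterodimer and had different values. EHMT1 was at 5.29 and 5.37 FPKM in the controls and 4.62 and 4.57 FPKM with ETS1, a change of -0.18 (standard error 0.0363, limma adjusted p 0.0120). EHMT2 was at 10.9 and 10.3 FPKM in the controls and 11.0 and 10.9 FPKM with ETS1, with overlapping groups and a change of 0.038 (95% interval -0.059 to 0.14). The median change of all tested genes on chromosome 9, where EHMT1 lies, was -0.11, and with chromosome medians removed EHMT1 lost its call (-0.066, adjusted p 0.161). SUV39H2, which trimethylates H3K9 at heterochromatin, rose from 9.20 and 8.98 to 10.0 and 9.98 FPKM (0.13, adjusted p 0.0244), while SUV39H1 was at 13.9 and 13.9 FPKM in the controls and 13.1 and 13.0 FPKM with ETS1 and did not pass (-0.082, adjusted p 0.0590). SETDB1, which silences endogenous retroviruses, rose from 6.32 and 6.58 to 7.15 and 7.02 FPKM (0.12, adjusted p 0.0448), a call that did not hold with the length trend removed (0.024, adjusted p 0.603). The authors' deposited table does not call SETDB1 or SUV39H2, with adjusted p-values of 0.147 and 0.192.

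Of the 5 H3K36 and H3K79 methyltransferases, which act over transcribed gene bodies, 3 rose and none fell, where 59.1% of all tested genes were called, and 49.1% of those at least as long as the median member were called higher. WHSC1 (NSD2), an H3K36 dimethylating enzyme, was at 12.2 and 12.3 FPKM in the controls and 14.7 and 14.6 FPKM with ETS1, with no overlap and a change of 0.24 (standard error 0.0291, limma adjusted p 0.00260). WHSC1L1 (NSD3), its paralog, was at 7.49 and 7.27 FPKM in the controls and 6.99 and 7.15 FPKM with ETS1, both ETS1 values below both controls, and did not pass (-0.054, adjusted p 0.245). All tested genes of chromosome 8, which holds WHSC1L1, had a median change of -0.17, and with chromosome medians removed it was called higher (0.12, adjusted p 0.0333). With the length trend removed WHSC1L1 was instead called lower (-0.23, adjusted p 0.00591), as it was with the GC trend removed as well (-0.24, adjusted p 0.00327). SETD2, the enzyme that trimethylates H3K36, went from 13.1 and 12.8 to 14.1 and 14.2 FPKM (0.11, adjusted p 0.0277). DOT1L, the H3K79 methyltransferase, went from 5.42 and 5.57 to 5.97 and 6.05 FPKM (0.11, adjusted p 0.0489). NSD1 was at 12.7 and 13.0 FPKM in the controls and 13.8 and 13.6 FPKM with ETS1, not overlapping, with an adjusted p of 0.0539. None of the 3 higher calls held with the length trend removed, where WHSC1 was at 0.045 (adjusted p 0.242), SETD2 at -0.020 (adjusted p 0.604) and DOT1L at -0.037 (adjusted p 0.425).

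In Polycomb repressive complex 2, 3 of 5 genes rose and 1 fell, where 30.7% and 28.4% of all tested genes did. The alternative catalytic subunits had opposite calls. EZH2, the H3K27 methyltransferase of dividing cells, was at 23.6 and 23.5 FPKM in the controls and 27.1 and 25.8 FPKM with ETS1, a change of 0.16 (standard error 0.0335, limma adjusted p 0.0126). EZH1, its paralog with weaker methyltransferase activity, was at 14.2 and 14.0 FPKM in the controls and 12.6 and 12.6 FPKM with ETS1, a change of -0.15 (standard error 0.0297, limma adjusted p 0.0111). Neither gene overlapped between the groups, and the FPKM ratio of EZH1 to EZH2 was 0.603 and 0.596 in the controls and 0.466 and 0.488 with ETS1. JARID2, which recruits the complex, rose from 5.29 and 5.45 to 6.12 and 6.23 FPKM (0.17, adjusted p 0.0139). SUZ12, a core subunit, rose by more (0.31, adjusted p 0.0256) with a wide spread, at 11.7 and 10.1 FPKM in the controls and 13.1 and 14.5 FPKM with ETS1, and a pseudogene copy can share its reads. The core subunit EED was at 5.50 and 5.14 FPKM in the controls and 5.47 and 5.80 FPKM with ETS1, with overlapping groups, and did not pass (0.070, adjusted p 0.271). EZH2 and EZH1 kept their calls with the length trend removed (0.14 with adjusted p 0.0228, and -0.24 with adjusted p 0.00304), and JARID2 (0.089, adjusted p 0.0950) and SUZ12 (0.23, adjusted p 0.0651) did not.

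Polycomb repressive complex 1 places ubiquitin on histone H2A, and of its 5 genes none was called higher and 1 was called lower, against 30.7% and 28.4% of all tested genes. RING1, one of the E3 ligase subunits, was at 56.1 and 57.3 FPKM in the controls and at 47.2 and 48.9 FPKM with ETS1, a change of -0.23 (standard error 0.0313, limma adjusted p 0.00343). Its paralog RNF2 (RING1B) was at 12.2 and 10.8 FPKM in the controls and 12.2 and 12.8 FPKM with ETS1, with overlapping groups, and did not pass (0.11, adjusted p 0.181). The RING1 to RNF2 ratio of FPKM was 4.61 and 5.31 in the controls and 3.88 and 3.83 with ETS1. BMI1, the PCGF4 subunit that stimulates the ligase, was the member with the widest spread, at 20.3 and 16.1 FPKM in the controls and 20.8 and 25 FPKM with ETS1, and its 0.32 did not pass (adjusted p 0.0951). BMI1 shares 23.4% of its exon bases with the readthrough gene COMMD3-BMI1, so its count can be split. Of the chromodomain readers, CBX8 was at 5.18 and 5.66 FPKM in the controls and 6.02 and 6.19 FPKM with ETS1 (0.15, adjusted p 0.0543) and CBX2 at 14.8 and 15.3 FPKM in the controls and 14.8 and 14.9 FPKM with ETS1 (-0.017, adjusted p 0.668). RING1, with an inferred length of 1818 bases the shortest tested member, kept its call with the length trend removed (-0.14, adjusted p 0.0192) and lost it with the GC trend removed as well (-0.082, adjusted p 0.0714).

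Histone demethylases rose in 4 of 8 cases and fell in 1, against 30.7% and 28.4% of all tested genes and 49.1% and 13.1% of those at least as long as the median member. KDM5A, which removes H3K4 trimethylation, was at 3.11 and 3.06 FPKM in the controls and 5.11 and 4.98 FPKM with ETS1. The groups lay far apart relative to their spread, and the change was 0.57 (standard error 0.0398, limma adjusted p 0.000769). KDM5B, its paralog, went from 8.01 and 8.05 to 10.3 and 10.4 FPKM, a change of 0.34 (standard error 0.0310, limma adjusted p 0.00134). KDM2A, an H3K36 demethylase that binds unmethylated CpG islands, went from 9.85 and 9.84 to 12.1 and 12 FPKM (0.27, adjusted p 0.00216), and its paralog KDM2B was at 2.95 and 3.00 FPKM in the controls and 3.28 and 3.26 FPKM with ETS1 (0.10, adjusted p 0.0865). KDM1A (LSD1), the demethylase of the CoREST complex, fell from 27.4 and 28.1 to 24.3 and 24.4 FPKM, a change of -0.18 (standard error 0.0284, limma adjusted p 0.00568). KDM1A had the highest control FPKM of the 8. KDM4A and KDM4B, which act on H3K9 and H3K36, had like changes of 0.12 and 0.13, of which KDM4A passed (adjusted p 0.0228) and KDM4B did not (adjusted p 0.0529). KDM4A went from 8.85 and 8.80 to 9.73 and 9.67 FPKM and KDM4B from 4.05 and 4.28 to 4.60 and 4.69 FPKM. KDM6B, an H3K27 demethylase, was at 6.77 and 6.79 FPKM in the controls and 6.93 and 6.85 FPKM with ETS1 (0.020, 95% interval -0.066 to 0.11). With the length trend removed KDM5A (0.41, adjusted p 0.00164), KDM5B (0.21), KDM2A (0.13) and KDM1A (-0.24) kept their calls and KDM4A (0.074, adjusted p 0.0967) did not.

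Histone deacetylases remove acetyl groups and go with repression. Of 6 tested genes 1 rose and 1 fell, where 59.1% of all tested genes were called either way. SIRT1, an NAD-dependent deacetylase, rose from 15.1 and 15.4 to 18.2 and 19.1 FPKM, a change of 0.28 (standard error 0.0361, limma adjusted p 0.00317). HDAC2 fell from 19.5 and 20.3 to 17.8 and 17.3 FPKM, a change of -0.17 (standard error 0.0348, limma adjusted p 0.0113). HDAC1, its partner in the NuRD, Sin3 and CoREST complexes and the most abundant of all members, was at 86.0 and 85.4 FPKM in the controls and 90.5 and 86.0 FPKM with ETS1. The HDAC1 groups overlapped, and the change was 0.041 with a 95% interval of -0.047 to 0.13. HDAC3, the deacetylase of the NCoR and SMRT complexes, was at 17.2 and 18.4 FPKM in the controls and 17.2 and 17.6 FPKM with ETS1, also overlapping. Of the class IIa genes, which shuttle between nucleus and cytoplasm, HDAC5 was at 12.6 and 13.0 FPKM in the controls and 12 and 11.9 FPKM with ETS1 (-0.090, adjusted p 0.0585) and HDAC7 at 3.58 and 3.52 FPKM in the controls and 3.73 and 3.85 FPKM with ETS1 (0.074, adjusted p 0.183). The authors' deposited table calls HDAC5 lower, with a log2 fold change of -0.12 (adjusted p 0.0386). HDAC4 and HDAC9 were under 1 FPKM and were not tested. HDAC4 was at 0.394 and 0.492 FPKM in the controls and 0.593 and 0.585 FPKM with ETS1, and the authors' deposited table gives it a log2 fold change of 0.32 (adjusted p 0.0354). HDAC9, the lowest member, was at 0.207 and 0.183 FPKM in the controls and 0.266 and 0.254 FPKM with ETS1. Neither overlapped between the groups.

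Among the coactivators, 3 of 5 rose and 1 fell, against 30.7% and 28.4% of all tested genes. EP300 (p300), an acetyltransferase of enhancers, was at 8.60 and 8.39 FPKM in the controls and 11.1 and 11.4 FPKM with ETS1, a change of 0.37 (standard error 0.0346, limma adjusted p 0.00141). CREBBP (CBP), its paralog, went from 6.81 and 6.63 to 7.66 and 8.02 FPKM, a change of 0.19 (standard error 0.0386, limma adjusted p 0.0111). KAT2A (GCN5), the catalytic subunit of the SAGA and ATAC complexes, was at 74.8 and 76.5 FPKM in the controls and 59.2 and 57.8 FPKM with ETS1, and its change was -0.37 (standard error 0.0284, limma adjusted p 0.000933). Its paralog KAT2B (PCAF) was at 8.61 and 7.92 FPKM in the controls and 8.87 and 9.09 FPKM with ETS1 and did not pass (0.11, adjusted p 0.108). The KAT2A to KAT2B ratio of FPKM was 8.69 and 9.65 in the controls and 6.67 and 6.36 with ETS1. BRD2, a bromodomain reader of acetylated histones, went from 64.8 and 66.2 to 72.6 and 71.5 FPKM (0.14, adjusted p 0.0112). With the length trend removed EP300 (0.24, adjusted p 0.00495) and KAT2A (-0.36, adjusted p 0.00108) kept their calls, and CREBBP (0.021, adjusted p 0.664) and BRD2 (0.037, adjusted p 0.287) lost them.

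Of the 8 subunits of nucleosome remodelers, 3 rose and 1 fell, against 30.7% and 28.4% of all tested genes and 49.1% and 13.1% of those at least as long as the median member. The ARID and polybromo subunits, which distinguish the BAF and PBAF forms of the complex, rose: PBRM1 (PBAF) went from 6.68 and 6.24 to 10.1 and 10.3 FPKM, a change of 0.58 (standard error 0.0425, limma adjusted p 0.000828). ARID1A (BAF) went from 9.09 and 9.78 to 11.9 and 12.5 FPKM, a change of 0.33 (standard error 0.0477, limma adjusted p 0.00406). ARID1B, its paralog, went from 3.97 and 3.61 to 4.89 and 5.03 FPKM, a change of 0.32 (standard error 0.0518, limma adjusted p 0.00614). The ATPases did not pass, with SMARCA4 (BRG1) at 19.6 and 21.0 FPKM in the controls and 21.2 and 21.2 FPKM with ETS1 (0.061, 95% interval -0.045 to 0.17) and SMARCA2 (BRM) at 4.43 and 4.73 FPKM in the controls and 4.91 and 5.15 FPKM with ETS1 (0.11, 95% interval -0.012 to 0.23). SMARCC1, a scaffold subunit, was at 30.0 and 30.1 FPKM in the controls and 30.3 and 31.0 FPKM with ETS1 (0.025, 95% interval -0.047 to 0.10). The core subunit SMARCB1 fell from 75.6 and 80.2 to 62.4 and 63.0 FPKM, a change of -0.31 (standard error 0.0368, limma adjusted p 0.00253). Its exons share 17.7% of their bases with DERL3 on the other strand, and whether counting used strand is not given in the sources used here. CHD4, the ATPase of NuRD, was at 30.2 and 30.7 FPKM in the controls and 31.6 and 31.0 FPKM with ETS1 (0.038, 95% interval -0.034 to 0.11). PBRM1 (0.45, adjusted p 0.00155), ARID1A (0.21, adjusted p 0.0183) and SMARCB1 (-0.24, adjusted p 0.00585) kept their calls with the length trend removed, and ARID1B did not (0.14, adjusted p 0.0795).

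All 3 genes of DNA methylation on the list rose, where 30.7% of all tested genes and 49.1% of those at least as long as the median member were called higher. DNMT3A, a de novo DNA methyltransferase, was at 2.04 and 2.03 FPKM in the controls and 2.60 and 2.80 FPKM with ETS1, a change of 0.28 (standard error 0.0527, limma adjusted p 0.00912). TET2, which oxidises methylcytosine, went from 1.04 and 1.07 to 1.51 and 1.60 FPKM, or 1.47 times, with a change of 0.31 (standard error 0.0600, limma adjusted p 0.0103). TET3, its relative, went from 3.06 and 2.83 to 3.72 and 3.64 FPKM, a change of 0.25 (standard error 0.0494, limma adjusted p 0.0113). All 3 had control levels of about 3 FPKM or less, where the pseudocount of 1 FPKM understates a change. DNMT3A kept its call with the length trend removed (0.19, adjusted p 0.0312), and TET2 (0.13, adjusted p 0.127) and TET3 (0.10, adjusted p 0.148) did not.

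**Figure D3:**
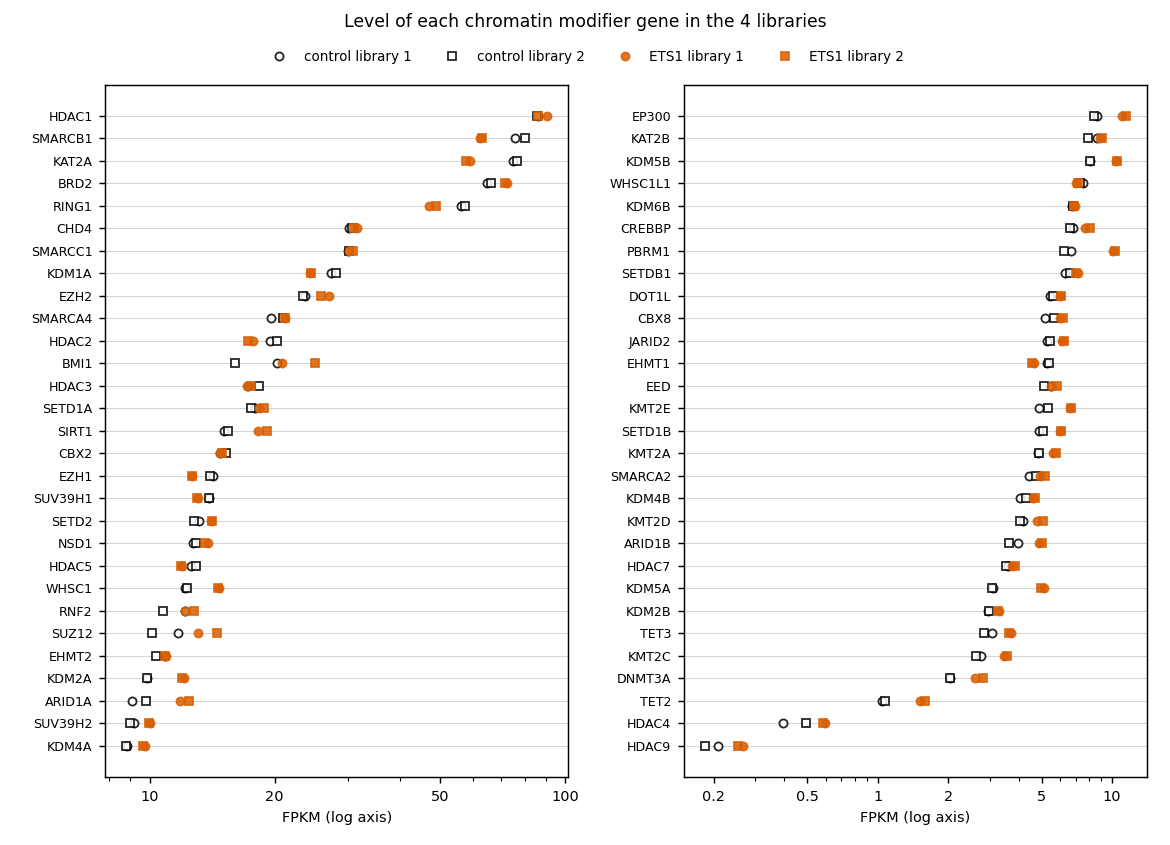
FPKM of each of the 58 members in the 4 libraries on log axes, ordered by control mean from top left to bottom right. Open symbols are controls and filled symbols ETS1 libraries, with circles for replicate 1 and squares for replicate 2. HDAC1 (86.0 and 85.4 FPKM in the controls) stands highest and HDAC9 (0.207 and 0.183 FPKM) lowest.

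In the controls the members spanned from HDAC9 to HDAC1, at 0.195 ± 0.0173 and 85.7 ± 0.424 FPKM (SD, n = 2 each). Below HDAC1 came SMARCB1 at 77.9 ± 3.29 and KAT2A at 75.6 ± 1.15 FPKM, whose values overlapped each other, then BRD2 at 65.5 ± 0.957 and RING1 at 56.7 ± 0.868 FPKM (SD, n = 2 each), which did not. The next 2, CHD4 at 30.2 and 30.7 FPKM and SMARCC1 at 30.0 and 30.1 FPKM, were close. Of the 56 tested members, the 7 that fell had a median control level of 27.7 FPKM, those that rose 6.46 FPKM and those not called 12.1 FPKM. SMARCB1, KAT2A and RING1, at ranks 2, 3 and 5 of the order, all fell. With ETS1 the order after HDAC1 was BRD2, SMARCB1, KAT2A and RING1.

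Related genes of the same family were compared by their FPKM ratio within each library. Of 18 pairs, 16 had ratios that did not overlap between the groups, where 82.0% of all tested single genes did not overlap. The exact two-sided permutation test gave each of these a p of 0.33, the smallest possible, or 0.375 adjusted over the 18 pairs. All pairs share the same libraries. The largest shift among pairs with both genes tested was that of KAT2A to KAT2B (-0.49 on the log2 scale of FPKM, which has no pseudocount), followed by RING1 to RNF2 (-0.36), KDM5A to KDM5B (0.34) and EZH1 to EZH2 (-0.33). The ratio of WHSC1 to WHSC1L1 was 1.63 and 1.69 in the controls and 2.11 and 2.04 with ETS1, and that of HDAC1 to HDAC2 was 4.41 and 4.21 against 5.09 and 4.98. That of EHMT1 to EHMT2 was 0.484 and 0.519 against 0.421 and 0.418. CREBBP to EP300 was at 0.791 and 0.791 in the controls and 0.693 and 0.703 with ETS1. SMARCA2 was the minor ATPase in every library, at 0.225 to 0.243 times SMARCA4. For ARID1A to ARID1B (2.29 and 2.71, then 2.43 and 2.47) and KDM4A to KDM4B (2.19 and 2.06, then 2.12 and 2.06) the groups overlapped.

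**Figure D4:**
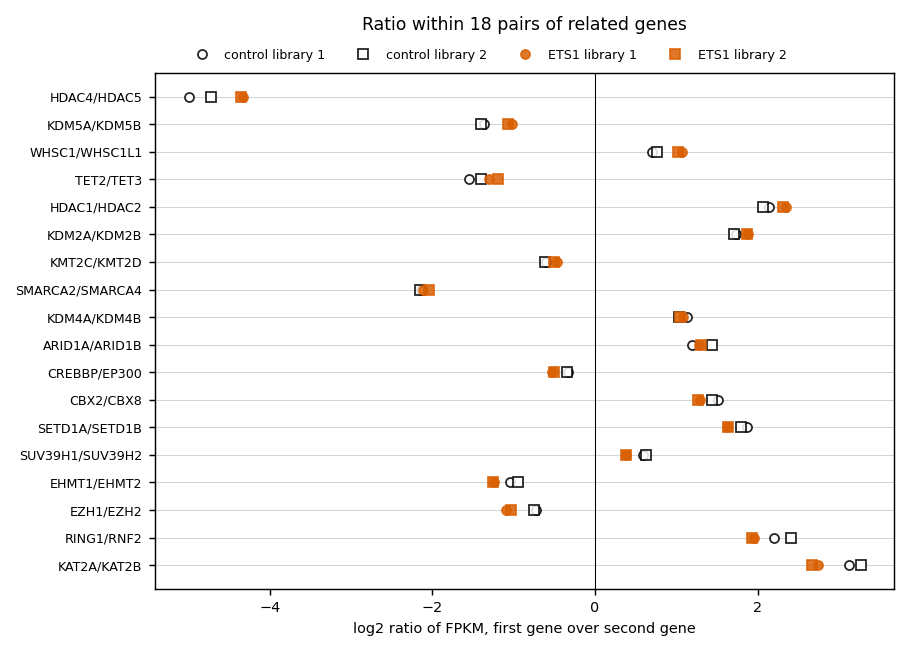
Log2 ratio of FPKM between the 2 genes of each of 18 pairs in each library, with open symbols for controls and filled symbols for ETS1 libraries, ordered from the most negative shift at the bottom to the most positive at the top. KAT2A/KAT2B is at the bottom, with a shift of -0.49, and HDAC4/HDAC5 at the top, with 0.52, where HDAC4 is under 1 FPKM.

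A second list of 111 other chromatin genes, with further subunits of the same complexes, went in both directions. Of 109 tested, 45 rose and 26 fell, which is 41.3% and 23.9% against 30.7% and 28.4% of all tested genes, with a median of 0.080. The largest rise was that of SMARCA1, an ISWI ATPase, from 24.3 to 41.5 FPKM (0.75 on the log2 scale). NCOR1, a corepressor that works with HDAC3, went from 6.03 to 9.43 FPKM (0.57 on the log2 scale), and CHD3, an alternative NuRD ATPase, from 12.8 to 19.0 FPKM (0.54 on the log2 scale). AEBP2, an accessory subunit of Polycomb repressive complex 2, went from 5.17 to 7.88 FPKM (0.53 on the log2 scale), BPTF, the reader subunit of the NURF remodeler, from 5.45 to 8.25 FPKM (0.52 on the log2 scale), and CHD9 from 2.00 to 3.29 FPKM (0.52 on the log2 scale). On the log2(FPKM + 1) scale the largest fall was that of PRMT1, the main asymmetric arginine methyltransferase, from 42.6 to 29.6 FPKM (-0.51). MBD3, a NuRD subunit, fell from 33.9 to 25.1 FPKM (-0.42 on the log2 scale). SETDB2, a relative of SETDB1, fell from 4.36 to 3.02 FPKM (-0.41 on the log2 scale). By FPKM ratio SETDB2 fell slightly further than PRMT1, to 0.693 against 0.695 times the control level. WDR5 and DPY30, small subunits shared by the H3K4 methyltransferase complexes, fell from 36.9 to 27.9 FPKM (-0.39 on the log2 scale) and from 31.5 to 24.6 FPKM (-0.34 on the log2 scale). WDR5 lies on chromosome 9, as EHMT1 does. INO80, a remodeler ATPase, fell from 5.13 to 3.78 FPKM (-0.36 on the log2 scale). The tested genes of its chromosome, 15, had a median change of -0.23. All 12 of these kept their calls with the length trend removed. The list then had 30 higher and 31 lower calls of 109, where 27.0% and 28.7% of all tested genes were called. Fewer genes of the list were called without ETS1 replicate 2, a fit for which the share of all tested genes is not given here. The rising genes of this list had a median inferred length of 9019 bases and the falling ones 4725 bases. KMT2B and HDAC10 were under 1 FPKM and were not tested.

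The authors' deposited table, a DESeq2 comparison, lists 57 of the 58 members and calls 23 higher and 8 lower where its adjusted p is under 0.05. It calls 25.3% and 25.9% of all genes with an adjusted p, and 51.2% in either direction. Of the members tested here, 22 were called higher and 7 lower by both, and no member was called in opposite directions. SETD2, SETDB1, SUV39H2, DOT1L and KDM4A were called by limma alone, and HDAC5 in the authors' deposited table alone. Some members share exon bases with another gene in GENCODE, so reads there can be split or shared: on the same strand CHD4 (46.9%), KDM4A (40.2%), KMT2A (17.9%) and KAT2A (10.8%), and on the other strand SUV39H1 (20.3%) and SETDB1 (13.4%). In the authors' deposited table KDM5A has a log2 fold change of 0.68, PBRM1 of 0.62, TET2 of 0.51, SMARCB1 of -0.33 and KAT2A of -0.39.

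**Figure D5:**
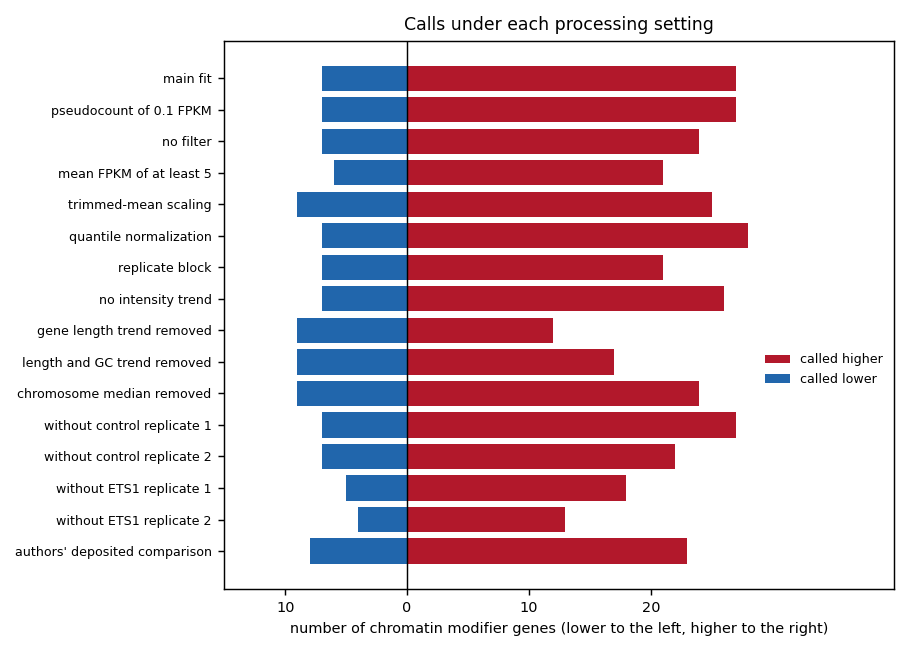
Number of chromatin modifiers called higher (red, to the right) and lower (blue, to the left) in the main fit and under each of the other settings. The main fit gives 27 and 7, and removal of the gene length trend gives 12 and 9.

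Across the 15 other settings, each including the members it could test, 12 of the 34 called members kept their direction and their call in all of them. The share of all called genes that did so is not given here, so the count does not set these members apart. The 9 that stayed higher were KMT2E, SETD1B, KDM2A, KDM5A, KDM5B, SIRT1, EP300, ARID1A and PBRM1, and the 3 that stayed lower were KDM1A, KAT2A and SMARCB1. KDM5A was tested in 14 of the settings, since its mean is under 5 FPKM. Removal of chromosome medians ended the calls of SETD2, SETDB1, SUV39H2, JARID2, KDM4A, BRD2 and EHMT1, and added higher calls for WHSC1L1, KDM4B (0.17, adjusted p 0.0186) and SMARCA2 (0.22, adjusted p 0.00928) and lower calls for SUV39H1 (-0.17, adjusted p 0.00501), HDAC3 (-0.13, adjusted p 0.0374) and HDAC5 (-0.11, adjusted p 0.0259).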

How the data were processed

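Bulk RNA-seq of 2 control and 2 ETS1 libraries was used. The authors deposited FPKM per gene, and the submitters' processing notes name HISAT2, HTSeq, DESeq2 and the builds hg38 and GRCh38, while versions, annotation and strand setting are not given in the sources used here. A second deposited table repeats the FPKM and adds the authors' DESeq2 values, per the file headers: a mean normalized count (a signal averaged over libraries), log2 fold changes with standard errors, p-values and adjusted p-values. Whether the fold changes were shrunk is not given in the sources used here. Raw counts were not used here.

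FPKM was tested as log2(FPKM + 1) with limma 3.58.1 in R 4.3.3 (group term, intensity trend, 2 residual and 2.84 prior degrees of freedom), over the 14306 genes with a mean of at least 1 FPKM (25.7% of those listed). P-values were two-sided and Benjamini-Hochberg adjusted over all of these, with a threshold of 0.05. On simulated data with a fixed spread and 188 changed genes tested, the fit recovered 56% of the smaller changes and 98.9% of the larger ones. It made 11 false calls of 154. Far fewer genes were changed there than were called here. The scale understates changes of low genes.

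Reads were recovered from FPKM steps and mean counts: for the 2885 genes with a mean count under 100, 99.3% of values fell within 0.05 of a whole read. For the 8566 genes over 1000 it was 57.8%, which makes reads of abundant genes approximate. The lengths inferred with them were within 2% of the exon union of GENCODE 29 for 78.1% of the tested genes that could be compared. Positions come from GENCODE 29 (GRCh38), matched by symbol for 56 members and by older symbol for WHSC1 and WHSC1L1.

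The members and gene lists were chosen with earlier results of these data known. Values are given for the members with the largest changes in each role group, for all members of the paralog pairs and for members under the filter, and from the second list for the 6 rising and 6 falling called genes of largest change. Members not covered by that rule are also given, chosen after their values were seen. The immune marker list is not reported here. The settings varied were the pseudocount, the filter (none or 5 FPKM), trimmed-mean and quantile scaling, the replicate number as a block, no intensity trend, the authors' values, removal of a length trend or chromosome medians, leaving out each library, and, added after seeing the data, removal of a length and GC trend.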

Additional observations from a re-analysis of the deposited data

How the results depend on the processing

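The counts of 27 higher and 7 lower chromatin modifiers stayed within 1.5 times under another pseudocount, no filter, the higher filter, both scalings, no intensity trend, chromosome medians removed and the authors' deposited values. With the length trend removed 12 were higher, and 17 with the GC trend removed as well, with 9 lower in both. Leaving out 1 library gave 13 to 27 higher and 4 to 7 lower, and for the second list 29 to 41 and 17 to 24 against 45 and 26. The lowest of these came without ETS1 replicate 2, which leaves the ETS1 arm with 1 library assumed to vary like the controls. The median member change of 0.12 was 0.13 with a pseudocount of 0.1, 0.11 at a mean of at least 5 FPKM, 0.10 under trimmed-mean scaling, 0.089 without chromosome medians, 0.019 without the length trend, 0.049 without the length and GC trend, 0.11 in the authors' deposited table and 0.11 to 0.12 without 1 library. Of called members, the sign turned without the length trend for KMT2A (-0.013), SETD2 (-0.020) and DOT1L (-0.037), and without the length and GC trend for SETD2 (-0.025). Of members not called, EED turned and was then called lower without the length and GC trend (-0.25), and WHSC1L1 turned and was then called higher without chromosome medians (0.12). Other members not called, such as CHD4 and SMARCC1, also turned sign under both length removals and stayed without a call. The causes were not tested.

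The replicate numbers do not pair the libraries by the labels, and the deviations of same-numbered libraries had a correlation of -0.0456 across genes. With the replicate block 21 members were called higher and 7 lower, with a median of 0.12, and 40 and 23 of the second list. The share of all tested genes called with the block is not given here. Tested members had at least 568 recovered reads in each library, and HDAC4 and HDAC9 were under the filter.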

Other observations

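BMI1 and SUZ12, picked out after their values were seen, were the 2 tested members with a coefficient of variation over 10% in at least 1 group. BMI1 was at 20.3 and 16.1 FPKM in the controls and 20.8 and 25 FPKM with ETS1, and SUZ12 at 11.7 and 10.1 FPKM and 13.1 and 14.5 FPKM.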
